A study of Penicillium oxalicum with 9 samples.

Results

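Genes described as proteases and peptidases were followed in Penicillium oxalicum, a filamentous fungus that secretes enzymes for breaking down plant cell walls. Members were all genes whose KEGG orthology or NCBI nr description held a protease word such as aspergillopepsin, carboxypeptidase, tripeptidyl, aminopeptidase, serine protease or deuterolysin. Descriptions with inhibitor, signal peptidase, mitochondrial, proteasome, chitin or glucan were left out. The rule found 50 members among the 9907 genes of the deposited table. They comprised 5 aspartic-type proteases, 5 metalloproteases, 1 gene described as a serine protease, 8 tripeptidyl peptidases, 5 dipeptidyl peptidases, 13 carboxypeptidases and 13 aminopeptidases. The descriptions are automated, so a family name here is a label and not a tested activity.

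Transcript levels came from mycelia of 3 strains with 3 libraries each: the wild type 114-2, a strain with clrB deleted and a strain with rcoA deleted. ClrB is known as an activator of cellulase transcription. RcoA belongs to the Tup1 family of corepressors. All strains were precultured for 22 h at 30 °C with 2% glucose, and their washed mycelia then grew for 24 h on 1% wheat bran and 1% cellulose. The deletion strains were compared with the wild type and with each other. Whether the 3 libraries of each strain stem from separate cultures is not stated in the labels. The p-values therefore rest on a spread between libraries that may be technical only.

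Filamentous fungi secrete endoproteases, which cut proteins internally, and exopeptidases, which trim the resulting peptides from either end. Short peptides and amino acids are then taken up by transporters in the plasma membrane. Other proteases work inside the cell, where the vacuole is the main site of bulk protein breakdown. Secreted proteases are also known for degrading the cellulases that such fungi export.

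Levels are FPKM as the authors computed them, that is, mapped fragments divided by transcript length and by the mapped fragments of the library. Group values are means ± SD with n = 3, and log2 changes are differences of log2(FPKM + 1) with their standard error (SE). A gene was called when limma's adjusted p was under 0.05, over the 9097 genes with a mean of at least 1 FPKM. Fold values are ratios of mean FPKM, and the log2 scale understates changes of low genes.

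The libraries summed to between 776855 and 820648 FPKM, and their depth in reads is unknown. Log2 values of replicates correlated at 0.984 to 0.991 in the wild type and at 0.984 to 0.993 in the rcoA deletion. Replicates 1 and 3 of the clrB deletion correlated at 0.991, while replicate 2 correlated with them at 0.946 and 0.957. Replicate 2 was the farthest of its 3 libraries in 38 of the 48 tested members, or 79.2%, against 57.6% of all tested genes. The gene described as ClrB, PDE_05999, read 191.42, 200.22 and 163.33 FPKM in the wild type and 0.11, 0.11 and 0.08 in the clrB deletion. Which locus is rcoA is not stated in the labels. PDE_01024, described as TUP1, read 67.29, 65.53 and 70.72 FPKM in the wild type and 2.08, 2.67 and 3.38 in the rcoA deletion.

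In the wild type, transcripts of protease and peptidase genes were dominated by a few members. Their wild type means ran from 0.117 to 7492 FPKM with a median of 45.2, against a median of 23.05 over all genes. PDE_07927, described as aspergillopepsin I, was highest at 7492 ± 1075 FPKM. It was followed by the vacuolar serine protease PDE_09396 at 1783 ± 166, the deuterolysin PDE_07936 at 1435 ± 119 and the carboxypeptidase C PDE_08101 at 739 ± 50.4. No wild type library of these 4 overlapped another of them, and the closest neighbours were PDE_09396 and PDE_07936, with a lowest value of 1668.74 against a highest of 1558.25. A further aspergillopepsin, PDE_07344, was next at 253 ± 87.0, but its libraries overlapped those of the leucyl aminopeptidase PDE_05727 at 212 ± 5.36. The aminopeptidase I PDE_09550 followed at 186 ± 11.6. In all, 12 members reached 100 FPKM and 6 stayed under 10.

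**Figure D1:**
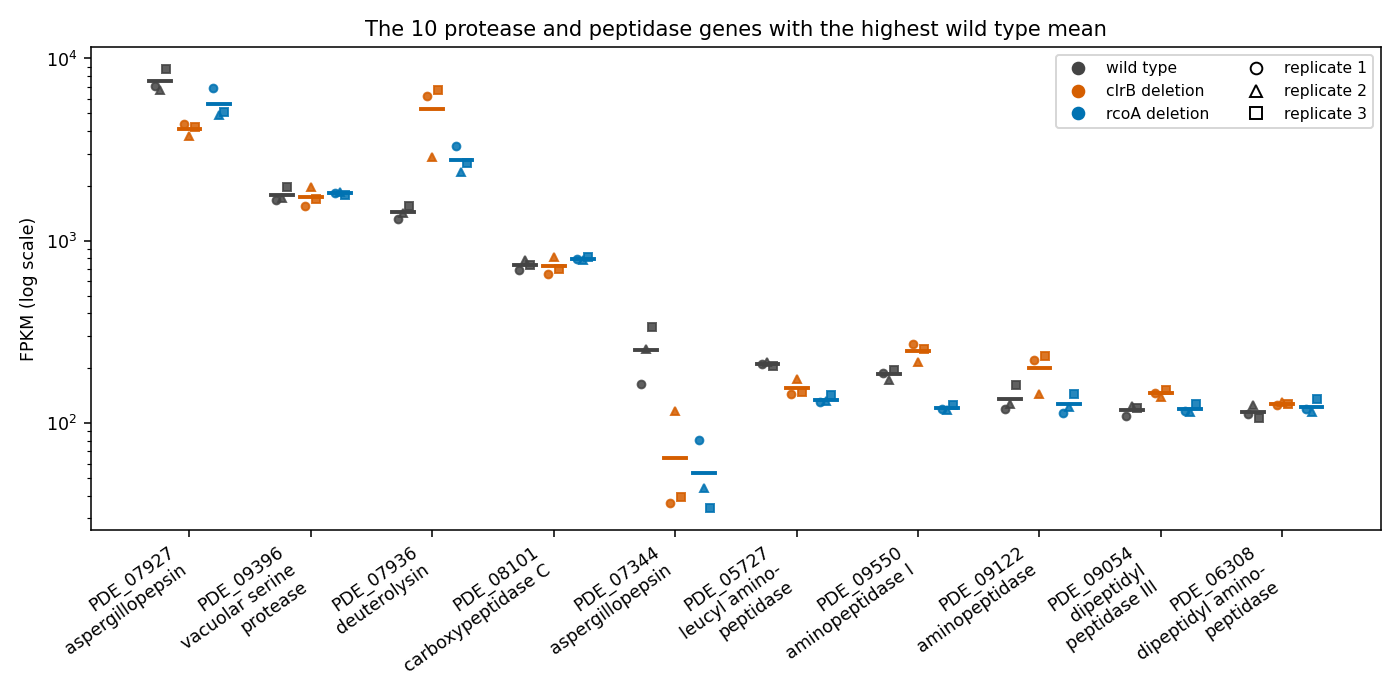
Level of the 10 members with the highest wild type mean, in FPKM on a log axis, with a point for each library and the strains side by side. The aspergillopepsin PDE_07927 lies between 3758.07 and 8720.84 in all libraries, and the deuterolysin PDE_07936 is the member with clrB deletion libraries at 2879.79 to 6752.27, above a wild type highest of 1558.25.

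The 5 members highest in the wild type held between 78.1% and 87.8% of the summed FPKM of all members in every library. Members together took 1.66%, 1.70% and 1.99% of all FPKM in the wild type libraries. The share was 1.94%, 1.56% and 2.07% in the clrB deletion and 1.80%, 1.44% and 1.49% in the rcoA deletion. The shares of the 3 strains overlapped. Per the labels' protocols the libraries were short tags next to a fixed cutting site. FPKM divides by length all the same, so sums and rankings across genes are uncertain to that extent.

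Without ClrB, most changes of protease and peptidase genes were small, and rises outnumbered falls. Of the 48 tested members, 13 were higher than in the wild type, 6 were lower and 29 were not called. The share called was 39.6%, against a background of 21.8% of all tested genes. Higher members made up 27.1% against 13.5% of all genes, and lower members 12.5% against 8.32%. The median log2 change was 0.17 over members and 0.08 over all genes. Called rises ran from 1.23-fold to 6.58-fold and called falls from 1.36-fold to 3.96-fold. At least 2-fold on the log2 scale, 3 members rose and 1 fell, which is 6.25% and 2.08% of members against 2.25% and 2.53% of all genes.

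These counts moved with the libraries used. Without clrB deletion replicate 2, 18 members were higher and 10 lower, and the 13 and 6 members called with all libraries stayed called. Calls over all genes also grew in that setting, from 1230 higher and 757 lower to 2195 and 1214. Higher members numbered 8 without wild type replicate 1 or 2, and 7 without clrB deletion replicate 3. Lower members numbered 3 without wild type replicate 2 or 3, and 2 without clrB deletion replicate 3. Over all genes, 389 were higher and 335 lower without clrB deletion replicate 3. Under every one of the 20 alternatives 7 of the 13 rises and 2 of the 6 falls remained called. Scaling also mattered across all genes: higher genes made up 61.9% of calls as deposited, but 45.6% with trimmed mean scaling, 49.9% with equal medians and 49.2% with quantile normalization. Under these scalings 11 members were higher, and 8, 7 and 9 were lower.

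Without RcoA, falls of protease and peptidase genes were more frequent and deeper. Of the 48 tested members, 22 were lower than in the wild type, 10 were higher and 16 were not called. The share called was 66.7% against a background of 64.5% of all tested genes, a share near the background. Lower members made up 45.8% against 34.1% of all genes, and higher members 20.8% against 30.4%. The median log2 change was -0.24 over members and -0.04 over all genes. At least 2-fold on the log2 scale, 13 members fell and 2 rose, or 27.1% and 4.17% of members against 14.9% and 12.1% of all genes. Called falls ran from 1.29-fold to 24.2-fold and called rises from 1.18-fold to 2.98-fold. Of the calls, 20 of 22 falls and 7 of 10 rises remained under every alternative. In bulk samples such as these, fewer cells of a type and less RNA per cell cannot be told apart.

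**Figure D2:**
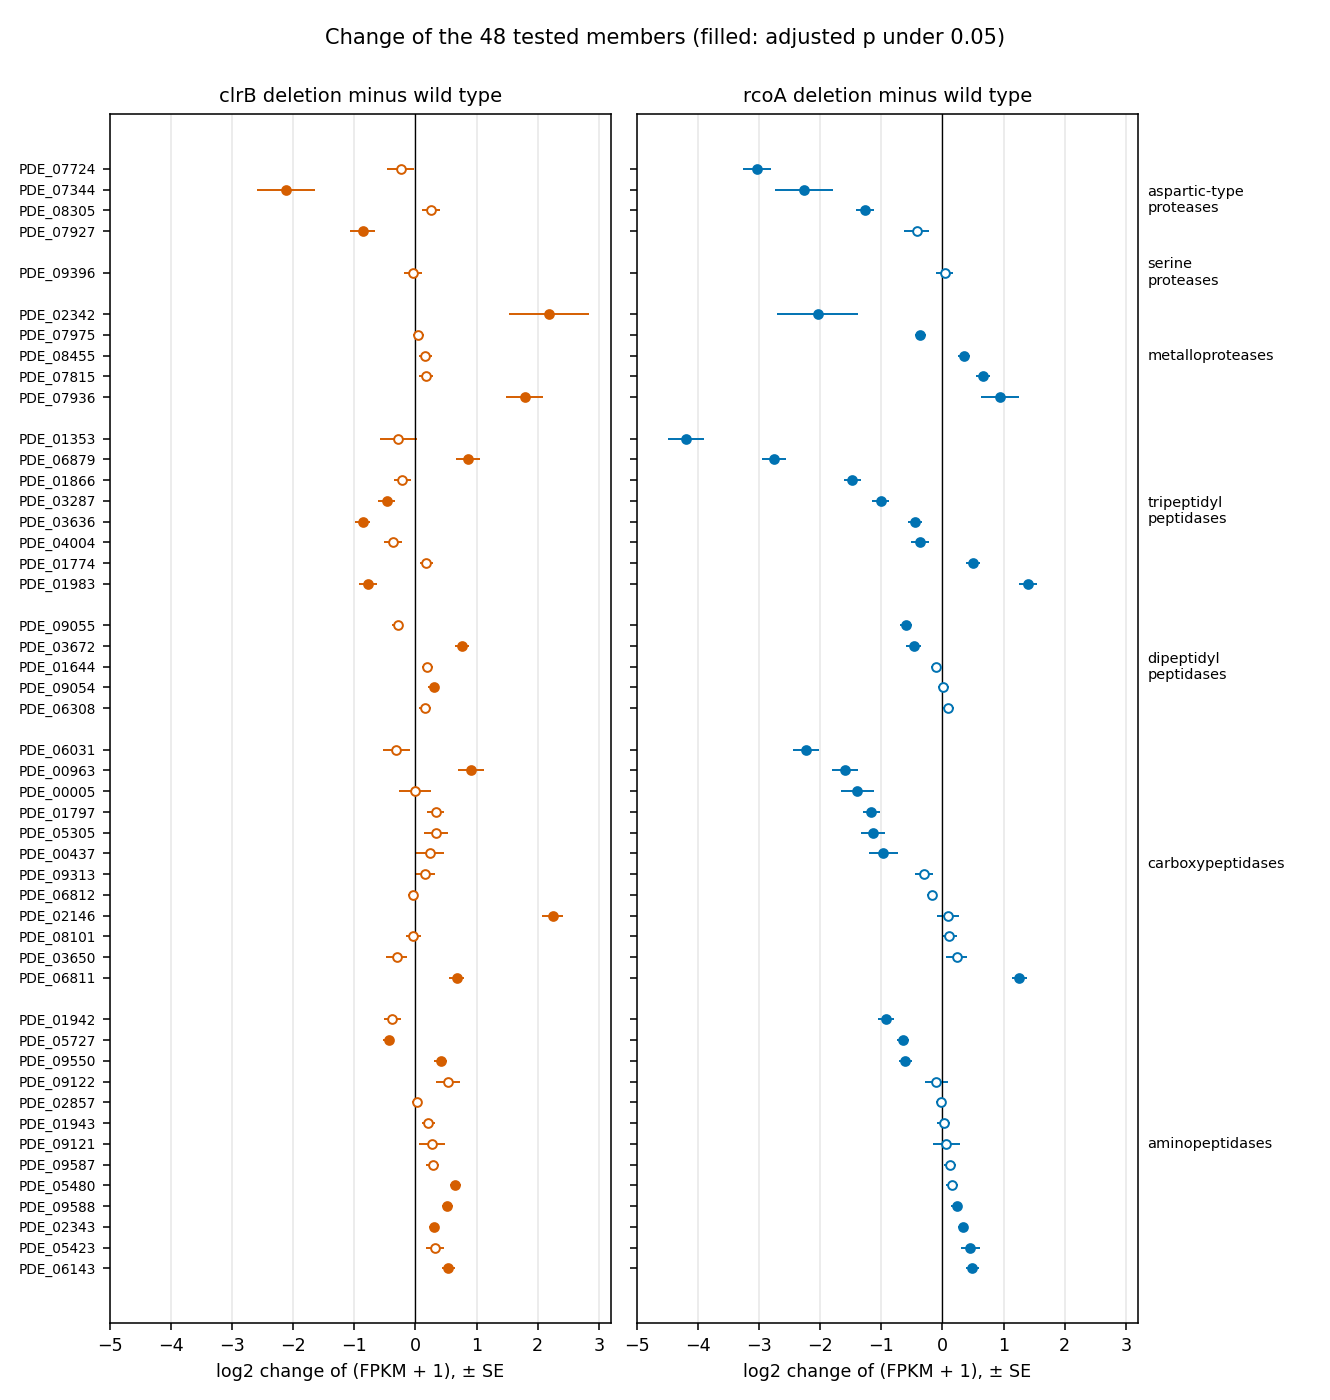
Log2 change of each of the 48 tested members, grouped by family, against the wild type, with standard errors, for the clrB deletion on the left and the rcoA deletion on the right. The rcoA deletion had 22 members called lower and 10 higher, and the clrB deletion 6 lower and 13 higher.

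Both deletions were compared with the same wild type libraries, so a call in 1 of them alone does not show a difference between them. The direct comparison of both deletions tests that difference. There 26 members were higher in the clrB deletion and 6 were lower, or 66.7% called against a background of 60.1%. Higher members made up 54.2% against 35.2% of all genes, and lower members 12.5% against 24.9%. At least 2-fold on the log2 scale, 15 members were higher and 1 was lower, or 31.25% and 2.08% against 13.9% and 9.99% of all genes. The median log2 difference was 0.29 over members and 0.11 over all genes. Quantile normalization moved the median of all genes to -0.05 and equal medians moved it to -0.04, and higher genes then made up 45.3% and 46.2% of calls, against 58.6% as deposited and 50.9% with trimmed mean scaling. Members still numbered 21 higher and 8 lower with quantile normalization, and 20 higher and 8 lower with either of the others. Leaving out rcoA deletion replicate 1 left 3 lower members.

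Among endoproteases, the tested members of the aspartic type, all described as aspergillopepsin I, fell or were not called in both deletions. Aspartic proteases described in other words, such as the saccharopepsin PDE_04768 given below, lie outside the rule. Aspergillopepsin I is an acid protease that Aspergillus species secrete. Of the 4 tested members 2 fell and 0 rose in the clrB deletion, while 3 fell and 0 rose in the rcoA deletion. Lower members were thus 50% and 75%, against 8.32% and 34.1% of all genes. The median log2 change was -0.55 and -1.77, and both stayed negative under each scaling.

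The most abundant of them, PDE_07927, read 7029.6, 6725.16 and 8720.84 FPKM in the wild type and 4353.72, 3758.07 and 4182.52 in the clrB deletion. It read 6929.72, 4881.71 and 5078.15 in the rcoA deletion. All clrB deletion libraries lay below all wild type libraries, while 1 rcoA deletion library lay within the wild type range. The level was 1.83-fold lower in the clrB deletion (log2 change -0.86, SE 0.21, adjusted p = 0.0207). This call was lost without wild type replicate 1 or 3 or clrB deletion replicate 3, with adjusted p from 0.0556 to 0.0729. In the rcoA deletion the difference was not called (log2 change -0.42, adjusted p = 0.103), nor was that between both deletions (log2 difference -0.44, adjusted p = 0.0931). The former was called lower without rcoA deletion replicate 1 (log2 change -0.58, adjusted p = 0.0384) and with no intensity trend (adjusted p = 0.0420). The latter was called lower in the clrB deletion under all 3 other scalings and with no intensity trend, with adjusted p from 0.0268 to 0.04998.

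PDE_07344 fell in both deletions. It read 164.71, 256.25 and 338.59 FPKM in the wild type, 36.4, 116.16 and 39.39 in the clrB deletion and 80.76, 44.22 and 34.22 in the rcoA deletion. No deletion library reached the lowest wild type library, and clrB deletion replicate 2 was the highest of the deletion libraries. The fall was 3.96-fold in the clrB deletion (log2 change -2.12, SE 0.48, adjusted p = 0.0165), or 6.68-fold without replicate 2. It was not called without wild type replicate 2 or 3 or clrB deletion replicate 3, with adjusted p from 0.0535 to 0.0678. The fall in the rcoA deletion was 4.77-fold (log2 change -2.27, SE 0.48, adjusted p = 0.00254), and both deletions did not differ past the threshold (log2 difference 0.15, SE 0.48).

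The other aspergillopepsins fell in the rcoA deletion and were not called in the clrB deletion, except that PDE_07724 was called lower without clrB deletion replicate 2 (log2 change -0.52, adjusted p = 0.0296). PDE_07724 read 43.28, 30.56 and 32.59 FPKM in the wild type, 24.76, 43.34 and 23.7 in the clrB deletion and 3.2, 3.05 and 3.97 in the rcoA deletion. The rcoA deletion libraries stood far below all others, 10.4-fold below the wild type (log2 change -3.04, SE 0.23, adjusted p = 4.89e-06). PDE_08305 read 55.3, 67.16 and 76.08 FPKM in the wild type, 82.29, 72.21 and 80.45 in the clrB deletion and 23.03, 25.49 and 32.3 in the rcoA deletion. It was 2.46-fold lower in the rcoA deletion (log2 change -1.27, SE 0.15, adjusted p = 7.95e-05). Both genes were higher in the clrB deletion than in the rcoA deletion, with log2 differences of 2.79 and 1.52. PDE_06044, also described as aspergillopepsin I, stayed between 0 and 0.2 FPKM in all libraries and was not tested.

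Among metalloproteases, deuterolysin carried most of the FPKM and was higher in both deletions. Of the 5 members 2 rose and 0 fell in the clrB deletion, and 3 rose and 2 fell in the rcoA deletion. The shares called were 40% and 100%, against backgrounds of 21.8% and 64.5%, and the median log2 changes were 0.17 and 0.36. Deuterolysin is a zinc metalloprotease that Aspergillus species secrete. PDE_07936 read 1320.57, 1425.37 and 1558.25 FPKM in the wild type, 6192.31, 2879.79 and 6752.27 in the clrB deletion and 3313.31, 2376.49 and 2662.5 in the rcoA deletion. No deletion library overlapped the wild type, and clrB deletion replicate 2 lay well below replicates 1 and 3. The level was 3.68-fold higher in the clrB deletion (log2 change 1.79, SE 0.31, adjusted p = 0.00588). In the rcoA deletion it was 1.94-fold higher (log2 change 0.95, SE 0.31, adjusted p = 0.0228), a call lost without wild type replicate 1 or 2 or rcoA deletion replicate 1, with adjusted p from 0.0585 to 0.0755. The clrB deletion was higher than the rcoA deletion by a log2 difference of 0.84 (adjusted p = 0.0397), but their libraries overlapped and that call was lost in 12 of the 20 alternatives.

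Opposite directions were called for PDE_02342, described as pappalysin-1, a metalloprotease known in humans for cutting proteins that bind insulin-like growth factors. It read 18.35, 23.02 and 24.03 FPKM in the wild type, 206.39, 25.64 and 198.13 in the clrB deletion and 4.71, 4.36 and 4.45 in the rcoA deletion. Replicates 1 and 3 of the clrB deletion were far above the wild type, whereas replicate 2 was only just above its highest library. The rise in the clrB deletion was 6.58-fold (log2 change 2.19, SE 0.66, adjusted p = 0.0441) and was lost in 8 of the 9 fits that left out 1 library, with adjusted p from 0.0621 to 0.154. In the ninth, without clrB deletion replicate 2, it was 9.28-fold (log2 change 3.16, adjusted p = 5.30e-07). The fall in the rcoA deletion was 4.84-fold (log2 change -2.04, SE 0.66, adjusted p = 0.0219) and was lost in 5 of those fits, with adjusted p from 0.0503 to 0.0597. It was also lost with a pseudocount of 10 (adjusted p = 0.117). All 3 strains shared 1 estimate of the spread, so the split clrB deletion libraries enter this SE too. The fall stayed called with only the 2 strains compared and without clrB deletion replicate 2. The difference between both deletions, 31.8-fold (log2 4.23, SE 0.66, adjusted p = 0.000518), held in every alternative.

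The 3 remaining members labelled metalloproteases moved less. PDE_07815 is described as Arx1, which in Saccharomyces cerevisiae is a factor for export of the large ribosomal subunit. It read 76.05, 64.21 and 73.15 FPKM in the wild type, 90.56, 70.34 and 80.3 in the clrB deletion and 120.66, 109.48 and 110.22 in the rcoA deletion. The rcoA deletion libraries lay above all others, 1.59-fold above the wild type (log2 change 0.67, SE 0.11, adjusted p = 0.000737). The ATP-dependent metalloprotease PDE_08455 was 1.29-fold higher there, at 30.2 ± 1.47 against 23.3 ± 1.5 FPKM (log2 change 0.36, SE 0.10, adjusted p = 0.0103). PDE_07975 was 1.29-fold lower, but it also carries descriptions as a rhamnose dehydrogenase and an acyl carrier protein reductase.

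The only member placed by its words in the serine protease family, PDE_09396, is described as cerevisin, the vacuolar protease B of Saccharomyces cerevisiae. It read 1668.74, 1706.48 and 1972.73 FPKM in the wild type, 1550.05, 1964.94 and 1685.6 in the clrB deletion and 1837.41, 1848.1 and 1782.68 in the rcoA deletion. All strains overlapped, and no comparison was called (adjusted p = 0.850 and 0.838 against the wild type). The log2 change was -0.04 without ClrB, or 0.21 with quantile normalization, and 0.04 without RcoA, each of the unscaled values with an SE of 0.14.

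Summed levels followed these few genes, as a description with no test. Aspartic-type proteases summed to 7847 ± 1149 FPKM in the wild type, against 4271 ± 258 without ClrB and 5713 ± 1150 without RcoA. Metalloproteases summed to 1608 ± 121, 5584 ± 2198 and 2977 ± 488 in the same order. In 2 clrB deletion libraries metalloproteases exceeded aspartic-type proteases, at 6575.6 against 4497.22 in replicate 1 and 7111.34 against 4326.11 in replicate 3. In replicate 2 of that strain, and in all other libraries, the aspartic type was higher. These sums hold only genes matched by the rule, so the order of both types may differ with other genes taken in. The abundant saccharopepsin PDE_04768, given below, is not part of the aspartic sum.

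**Figure D3:**
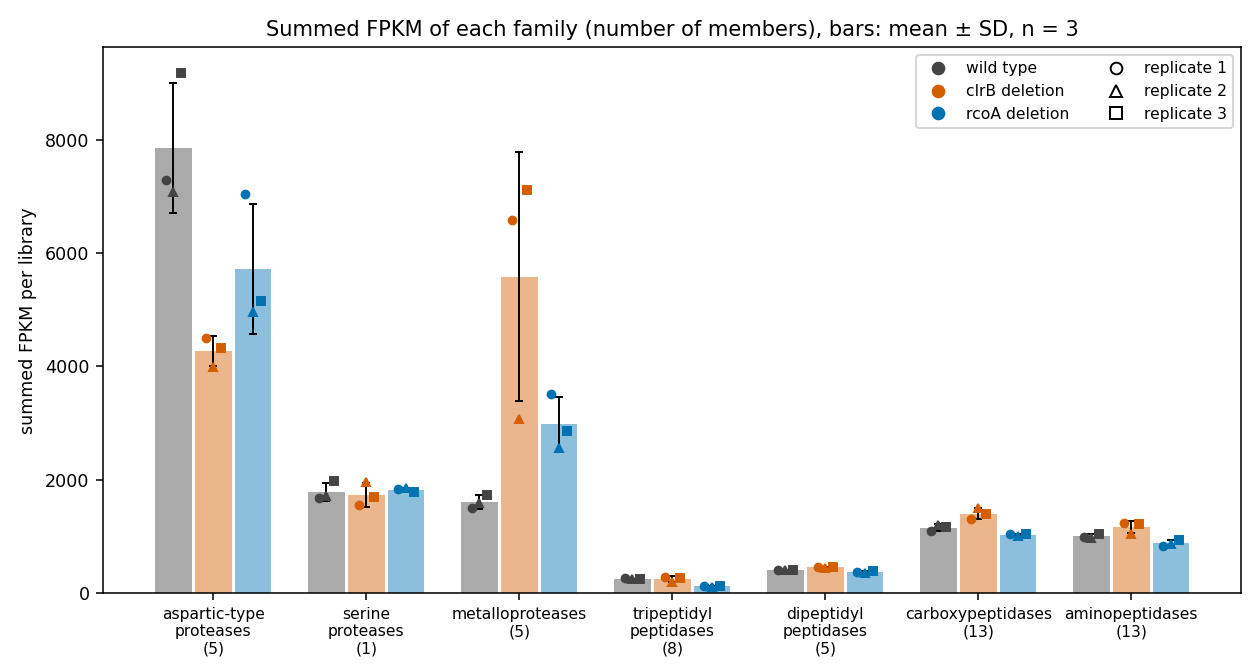
Summed FPKM of each family in each library, with the strain means. Aspartic-type proteases fall from 7847 in the wild type to 4271 in the clrB deletion, and metalloproteases rise from 1608 to 5584.

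Tripeptidyl peptidases, which release tripeptides from the amino end of proteins and peptides, held the deepest fall of any member. Of the 8 members 6 fell and 2 rose in the rcoA deletion, with a median log2 change of -0.73. Lower members made up 75% and higher members 25%, against 34.1% and 30.4% of all genes. A further count, for the clrB deletion, gave 3 that fell, 1 that rose and 4 not called, with a median of -0.33. These are 37.5% lower and 12.5% higher, against 8.32% and 13.5% of all genes. Summed, the family stood at 246 ± 9.43 FPKM in the wild type, against 251 ± 52.1 without ClrB and 120 ± 7.93 without RcoA. All 8 carry the description tripeptidyl-peptidase I, and near-identical copies may share reads.

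PDE_01353, annotated to the extracellular region, read 80.22, 61.91 and 67.65 FPKM in the wild type, 83.95, 32.81 and 67.19 in the clrB deletion and 3.62, 2.33 and 2.71 in the rcoA deletion. The rcoA deletion libraries stood far below the rest, 24.2-fold under the wild type (log2 change -4.20, SE 0.30, adjusted p = 3.66e-06). The clrB deletion overlapped the wild type and was not called (log2 change -0.28, SE 0.30), and its sign turned to 0.11 without replicate 2.

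PDE_06879 moved in opposite directions. It read 44.4, 56.56 and 52.88 FPKM in the wild type, 110.36, 67.83 and 107.59 in the clrB deletion and 6.75, 5.74 and 7.77 in the rcoA deletion. Libraries of the 3 strains formed separate ranges, with the clrB deletion highest. It was 7.59-fold lower in the rcoA deletion (log2 change -2.75, SE 0.19, adjusted p = 3.31e-06) and 1.86-fold higher in the clrB deletion (log2 change 0.85, SE 0.19, adjusted p = 0.0166). The rise was lost without wild type replicate 1 or clrB deletion replicate 3, with adjusted p of 0.0640 and 0.0695. Both deletions differed 14.1-fold (adjusted p = 8.22e-07). Its nr description names a galactosyltransferase instead.

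PDE_01983, annotated to the extracellular region, showed the reverse order. It read 5.11, 4.91 and 5.73 FPKM in the wild type, 2.68, 2.29 and 3 in the clrB deletion and 18.58, 12.48 and 15.86 in the rcoA deletion. The ranges were again separate, with the rcoA deletion highest and the clrB deletion lowest. It was 2.98-fold higher in the rcoA deletion (log2 change 1.40, SE 0.15, adjusted p = 4.65e-05) and 1.98-fold lower in the clrB deletion (log2 change -0.78, SE 0.15, adjusted p = 0.00996). The difference between both deletions was 5.89-fold (adjusted p = 3.70e-06).

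PDE_03636 fell in both deletions. It read 50.12, 41.32 and 42.21 FPKM in the wild type, 25.12, 23.71 and 22.88 in the clrB deletion and 37.63, 31.69 and 28.14 in the rcoA deletion. The clrB deletion was lowest, 1.86-fold under the wild type (log2 change -0.87, SE 0.12, adjusted p = 0.00242), and the rcoA deletion was 1.37-fold under it (adjusted p = 0.00990). No library of 1 strain fell within the range of another. Both deletions differed by a log2 value of -0.42 (adjusted p = 0.0153), a call lost without clrB deletion replicate 3 or rcoA deletion replicate 1, with adjusted p of 0.0520 and 0.0515.

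Of the others, PDE_03287 and PDE_01866 fell in the rcoA deletion. PDE_03287 read 23.34, 24.85 and 22.27 FPKM in the wild type and 10.83, 11.03 and 11.54 in the rcoA deletion, 2.11-fold lower (log2 change -1.01, SE 0.14, adjusted p = 0.000245). PDE_01866 fell 3.17-fold, from 14.5 ± 1.33 to 4.59 ± 0.270 FPKM (adjusted p = 2.26e-05). PDE_01774, whose nr description names a chondroitin synthase, rose 1.43-fold from 28.0 ± 0.701 to 40.01 ± 1.26 FPKM (adjusted p = 0.00322). PDE_03287 was also 1.39-fold lower in the clrB deletion (adjusted p = 0.0454), a call lost in 8 of the 9 fits that left out 1 library, with adjusted p from 0.0614 to 0.124. PDE_04004 fell 1.35-fold in the rcoA deletion at adjusted p = 0.0495, a call lost in 12 of the 20 alternatives.

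**Figure D4:**
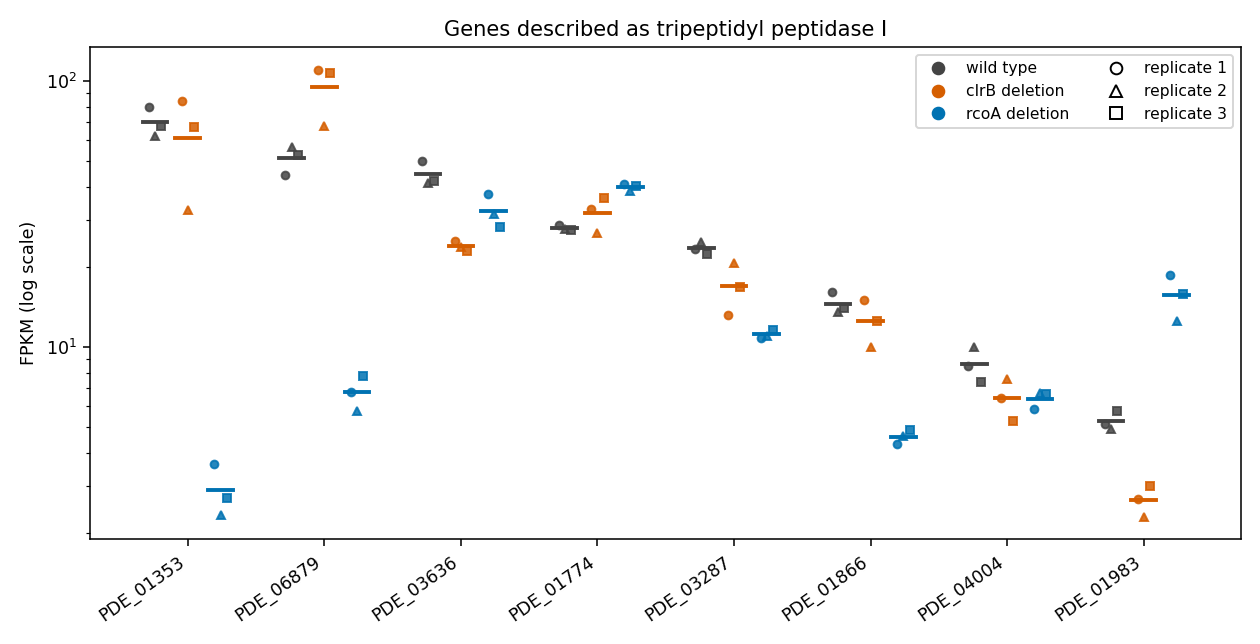
Level of the 8 tripeptidyl peptidase members in each library, in FPKM on a log axis. Without RcoA, PDE_01353 sits at 2.33 to 3.62 and PDE_06879 at 5.74 to 7.77, while PDE_01983 rises to between 12.48 and 18.58.

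Dipeptidyl peptidases, which release dipeptides from the amino end, changed by under 2-fold against the wild type. Of the 5 members 2 rose and 0 fell in the clrB deletion, or 1 rose and 1 fell under each of the other 3 scalings. In the rcoA deletion 2 fell and 0 rose, or 40% called against a background of 64.5%, and in the clrB deletion the same share compared with 21.8%. PDE_03672 read 26.59, 27.8 and 27.81 FPKM in the wild type, 50.64, 38.51 and 53.45 in the clrB deletion and 19.23, 18.96 and 20.36 in the rcoA deletion. Every clrB deletion library exceeded, and every rcoA deletion library fell short of, the wild type range. It was 1.73-fold higher in the clrB deletion (log2 change 0.76, SE 0.12, adjusted p = 0.00405) and 1.40-fold lower in the rcoA deletion (adjusted p = 0.00736). Both deletions differed 2.44-fold (log2 1.23, SE 0.12, adjusted p = 2.89e-05).

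The highest members of this family were dipeptidyl peptidase III (PDE_09054), a cytosolic enzyme in other eukaryotes, and PDE_06308, described as Ste13, a Golgi enzyme of Saccharomyces cerevisiae. PDE_09054 read 109.59, 123.99 and 121.6 FPKM in the wild type, 145.6, 139.31 and 151.9 in the clrB deletion and 117.24, 115.2 and 126.68 in the rcoA deletion. The clrB deletion libraries lay above the others, 1.23-fold above the wild type (adjusted p = 0.0429), but that call was lost in 8 of the 9 fits that left out 1 library, with adjusted p from 0.0502 to 0.157, and under all 3 other scalings. PDE_06308 stood at 115 ± 9.44, 128 ± 2.37 and 123 ± 10.4 FPKM in the wild type, clrB deletion and rcoA deletion and was not called. Its KEGG description also names a pre-mRNA-splicing helicase. PDE_09055 was 1.53-fold lower in the rcoA deletion (adjusted p = 0.000468), although its KEGG description names an ATP-binding cassette protein. In the direct comparison 4 of the 5 were higher in the clrB deletion, where 35.2% of all genes were higher, but 3 with quantile normalization and 1 with either of the other scalings.

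Carboxypeptidases, which release residues from the carboxyl end, had 6 falls and 1 rise among the 12 tested members in the rcoA deletion, with a median log2 change of -0.63 against -0.04 over all genes. That is 58.3% called against a background of 64.5%, and 50% lower against 34.1%. Of the same 12, 3 rose, 0 fell and 9 were not called in the clrB deletion, with a median of 0.20; 25% rose against 13.5% of all genes. Of the 12, 9 carry the description carboxypeptidase D, a group of serine carboxypeptidases. The untested member was PDE_01387, a Pro-X carboxypeptidase, with 0.59, 0.73 and 0.8 FPKM in the wild type, 0.67, 0.62 and 0.51 in the clrB deletion and 0.07, 0 and 0.04 in the rcoA deletion.

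PDE_02146 rose in the clrB deletion with the smallest adjusted p of any member there. Its descriptions are aminopeptidase Y, a vacuolar enzyme of Saccharomyces cerevisiae, and carboxypeptidase Q. It read 58.64, 51.26 and 47.81 FPKM in the wild type, 296.58, 185.58 and 289.39 in the clrB deletion and 58.74, 57.49 and 51.76 in the rcoA deletion. The clrB deletion libraries stood far above both other strains, which overlapped. The rise was 4.89-fold (log2 change 2.24, SE 0.17, adjusted p = 9.37e-05) and held in every alternative. Without RcoA the gene was not called (log2 change 0.09, SE 0.17), and both deletions differed by a log2 value of 2.15 (adjusted p = 9.04e-06).

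Among the carboxypeptidase D members, PDE_06031 and PDE_00963 fell furthest in the rcoA deletion. PDE_06031 read 79.11, 110.11 and 125.35 FPKM in the wild type, 64.77, 97.06 and 90.09 in the clrB deletion and 26.62, 19.01 and 18.65 in the rcoA deletion. Only the rcoA deletion stood apart, 4.89-fold lower than the wild type (log2 change -2.23, SE 0.22, adjusted p = 2.35e-05). PDE_00963 read 34.24, 27.37 and 25.33 FPKM in the wild type, 44.5, 72.01 and 52.21 in the clrB deletion and 11.74, 8.02 and 7.36 in the rcoA deletion. Here too the ranges were separate, with the wild type in the middle. It was 3.21-fold lower in the rcoA deletion (adjusted p = 0.000169) and 1.94-fold higher in the clrB deletion (adjusted p = 0.0185), the rise being lost without wild type replicate 2 or 3 or clrB deletion replicate 3, with adjusted p from 0.0548 to 0.0597.

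PDE_06811 was the carboxypeptidase that rose in both deletions. It read 13.53, 11.5 and 12.82 FPKM in the wild type, 22.91, 19.71 and 19.7 in the clrB deletion and 27.19, 31.68 and 36.18 in the rcoA deletion. The ranges of the strains were separate and ordered wild type, clrB deletion, rcoA deletion. It rose 1.65-fold in the clrB deletion (log2 change 0.68, SE 0.12, adjusted p = 0.00729) and 2.51-fold in the rcoA deletion (log2 change 1.26, SE 0.12, adjusted p = 2.39e-05). Its neighbour in locus number, PDE_06812, bears the same description and was not called, with log2 changes of -0.04 and -0.17.

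The remaining falls in the rcoA deletion were 2.27-fold for the Gly-Xaa carboxypeptidase PDE_01797, 2.74-fold for PDE_00005, 2.57-fold for PDE_05305 and 2.01-fold for PDE_00437, with adjusted p from 8.59e-05 to 0.00626. These 4 lie outside the rule for named genes and were chosen after their values were seen, to complete the list of falls. The most abundant member, PDE_08101, resembles by its description the vacuolar carboxypeptidase Y of Saccharomyces cerevisiae. It read 688.29, 789.13 and 738.19 FPKM in the wild type, 655.26, 815.82 and 699.26 in the clrB deletion and 797.68, 786.42 and 811.12 in the rcoA deletion. The strains overlapped and no comparison was called.

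Aminopeptidases, which release residues from the amino end, showed changes under 2-fold against the wild type in both deletions. Of the 13 members 5 rose and 1 fell in the clrB deletion, while 4 rose and 3 fell in the rcoA deletion. The shares called were 46.2% and 53.8%, against backgrounds of 21.8% and 64.5%. The median log2 change was 0.30 and 0.06. Without clrB deletion replicate 2, 9 rose and 2 fell in that strain. Calls over all genes grew as well, from 1230 higher and 757 lower to 2195 and 1214.

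Both most abundant aminopeptidases fell in the rcoA deletion. The aminopeptidase I PDE_09550, a vacuolar enzyme in Saccharomyces cerevisiae, read 188.33, 173.07 and 195.8 FPKM in the wild type, 271.28, 216.17 and 256.18 in the clrB deletion and 120.23, 117.47 and 126.32 in the rcoA deletion. The wild type range lay between those of both deletions. It was 1.53-fold lower in the rcoA deletion (log2 change -0.61, SE 0.11, adjusted p = 0.000894) and 1.33-fold higher in the clrB deletion (adjusted p = 0.0271), the rise being lost in 5 of the 9 fits that left out 1 library, with adjusted p from 0.0532 to 0.104. The leucyl aminopeptidase PDE_05727 read 212.22, 216.6 and 205.93 FPKM in the wild type, 145.15, 174.45 and 148.64 in the clrB deletion and 130.07, 132.05 and 141.79 in the rcoA deletion. Both deletions lay below the wild type, 1.57-fold in the rcoA deletion (adjusted p = 0.000332) and 1.36-fold in the clrB deletion (adjusted p = 0.0149). The latter call was lost without wild type replicate 2 or clrB deletion replicate 3, with adjusted p of 0.0503 and 0.0689.

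Aminopeptidase 2 and 2 methionyl aminopeptidases were among those that rose, while PDE_02857, a methionyl aminopeptidase at 72.8 ± 1.04 FPKM in the wild type, was not called in any comparison (log2 changes 0.03 and -0.02 in the clrB and rcoA deletions) and was named after its values were seen. Aminopeptidase 2 (PDE_05480) read 43.56, 51.99 and 48.17 FPKM in the wild type, 79.64, 71.09 and 76.09 in the clrB deletion and 54.87, 53.91 and 51.46 in the rcoA deletion. The clrB deletion stood above both other strains, 1.58-fold above the wild type (log2 change 0.65, SE 0.09, adjusted p = 0.00242). Methionyl aminopeptidases remove the initiator methionine from new proteins, and PDE_06143 read 41.64, 41.94 and 44.21 FPKM in the wild type, 68.02, 54.25 and 65.45 in the clrB deletion and 54.75, 62.81 and 62.95 in the rcoA deletion. Both deletions lay above the wild type, by 1.47-fold (adjusted p = 0.0103) and 1.41-fold (adjusted p = 0.00315), and overlapped each other.

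PDE_05423, also a methionyl aminopeptidase, was 1.39-fold higher in the rcoA deletion, at 79.8 ± 14.1 against 57.2 ± 2.37 FPKM (adjusted p = 0.0223). That call was lost without wild type replicate 2 or 3 or rcoA deletion replicate 2 or 3, with adjusted p from 0.0515 to 0.0796. The aminopeptidase PDE_09122 read 119.73, 127.88 and 160.95 FPKM in the wild type, 222.05, 144.59 and 234.01 in the clrB deletion and 114.13, 122.22 and 144.11 in the rcoA deletion. Replicates 1 and 3 of the clrB deletion were above the other strains and replicate 2 was within the wild type range, and against the wild type the gene was not called (log2 change 0.53, SE 0.20, adjusted p = 0.0799). It was called higher without clrB deletion replicate 2 (log2 change 0.75, adjusted p = 0.00420) and with a replicate block (adjusted p = 0.0499). Its KEGG description names a Ras-related protein.

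The clrB deletion libraries of several members split in the same way, with replicates 1 and 3 high and replicate 2 lower. This held for PDE_07936 and PDE_02342, and BrlA and the scytalone dehydratase PDE_04496 split alike. Over the 48 tested members replicate 2 was the lowest of its strain in 26, the highest in 19 and between the others in 3. The split was not confined to members, as replicate 2 was the farthest library in 57.6% of all tested genes, against 79.2% of members. Those with replicate 2 highest include PDE_07344 and PDE_07724, described above, and PDE_00437 at 41.33, 83.93 and 44.61 FPKM, named after its values were seen. BrlA, an activator of asexual spore formation (PDE_00087), read 18.18, 27.92 and 28.48 FPKM in the wild type, 148.96, 33.39 and 121.15 in the clrB deletion and 13, 12.44 and 13.74 in the rcoA deletion. Scytalone dehydratase (PDE_04496), an enzyme of spore pigment synthesis, read 36.49, 56.15 and 43.44 FPKM in the wild type, 200.23, 44.98 and 151.7 in the clrB deletion and 0.54, 0.45 and 0.45 in the rcoA deletion. Of the 3 tested markers 1, BrlA, was called higher in the clrB deletion (adjusted p = 0.0294) and 2 lower in the rcoA deletion. These are 33.3% and 66.7%, against 13.5% and 34.1% of all genes. Without clrB deletion replicate 2, PDE_04496 was called higher too (log2 change 1.94, adjusted p = 9.17e-05). In the rcoA deletion BrlA was not called (log2 change -0.85). There it was called lower without clrB deletion replicate 2 (adjusted p = 0.00124) and with only the 2 strains compared (adjusted p = 0.00209). The BrlA call in the clrB deletion was lost in 5 of the 9 fits that left out 1 library, with adjusted p from 0.0587 to 0.109. Over the 4 listed markers the summed level was 59.03 to 91.46 FPKM in the wild type, 355.0, 83.85 and 279.29 in the clrB deletion and 13.83 to 14.5 in the rcoA deletion. A further scytalone dehydratase, PDE_09236, was listed at 0 in all rcoA deletion libraries. In the clrB deletion PDE_09236 was not called, and its log2 change of 0.13 was the lowest of the 3 tested markers. The part of conidiation in the protease values was not tested.

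**Figure D5:**
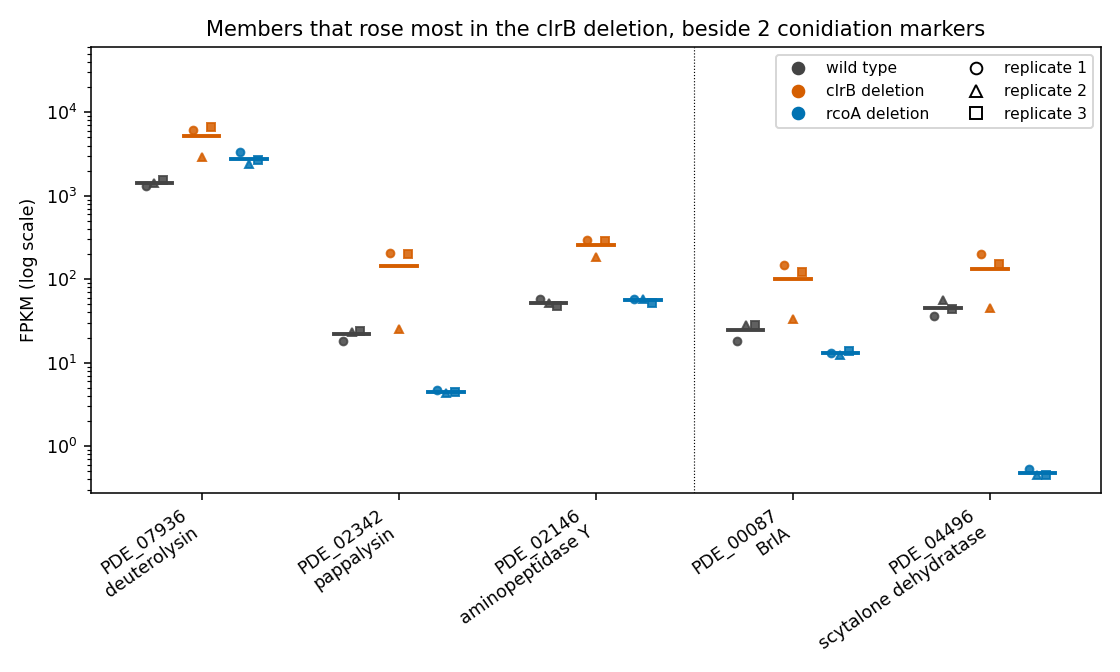
Level of 3 members that rose in the clrB deletion and of 2 conidiation markers, BrlA and the scytalone dehydratase PDE_04496. Values are FPKM on a log axis, with a symbol for each replicate and a line at each strain mean. PDE_02342 and BrlA are high in clrB deletion replicates 1 and 3 and near the wild type in replicate 2, while PDE_02146 lies at 185.58 to 296.58 in all 3 libraries.

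Genes for uptake of peptides were lower in the rcoA deletion. Of the 5 tested peptide transport genes 4 fell and 0 rose, with a median log2 change of -1.42 against -0.04 over all genes. Lower genes were 80%, against 34.1% of all genes, and the gene not called was PDE_01916 (log2 change -0.03, SE 0.28), named after its values were seen. Without ClrB, 2 rose and 1 fell, or 40% and 20%, against 13.5% and 8.32% of all genes. The summed FPKM of the listed peptide transport genes was 2077 to 2380 in the wild type, 1338 to 2264 in the clrB deletion and 363 to 501 in the rcoA deletion.

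The proton-dependent oligopeptide transporter PDE_05534 read 1520.65, 1562.57 and 1849.65 FPKM in the wild type, 561.69, 1214.9 and 609.46 in the clrB deletion and 173.34, 209.25 and 249.15 in the rcoA deletion. Both deletions lay below the wild type, and the rcoA deletion lay lowest. It was 7.81-fold lower in the rcoA deletion (log2 change -2.97, SE 0.28, adjusted p = 1.86e-05). In the clrB deletion the fall (log2 change -1.13, SE 0.28, adjusted p = 0.0220) was lost in 5 of the 9 fits that left out 1 library, with adjusted p from 0.0581 to 0.0879.

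PDE_06899 of the same transporter family, chosen after its values were seen, read 401.93, 281.44 and 272.18 FPKM in the wild type, 480.04, 749.54 and 570.97 in the clrB deletion and 46.49, 55.48 and 47.99 in the rcoA deletion. It was higher in the clrB deletion by 1.88-fold (adjusted p = 0.0137) and lower in the rcoA deletion by 6.37-fold (adjusted p = 4.64e-06), so both transporters were called in opposite directions in the clrB deletion. That rise was lost in 1 alternative, without wild type replicate 2 (adjusted p = 0.0513).

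Of 29 tested amino acid transport genes, 12 fell and 7 rose in the rcoA deletion, and 3 fell and 2 rose in the clrB deletion. These are 65.5% and 17.2% called, against the backgrounds of 64.5% and 21.8%. In the rcoA deletion 41.4% fell and 24.1% rose, against 34.1% and 30.4% of all genes. At least 2-fold on the log2 scale, 31.0% fell and 13.8% rose there, against 14.9% and 12.1%. In the clrB deletion 10.3% fell and 6.90% rose, against 8.32% and 13.5%. The called member with the highest mean, PDE_01802, read 746.22, 937.57 and 1134.56 FPKM in the wild type, 1403.81, 849.32 and 1618.06 in the clrB deletion and 41.47, 70.42 and 128.37 in the rcoA deletion. The rcoA deletion lay far below the rest, 11.7-fold under the wild type (log2 change -3.66, SE 0.39, adjusted p = 4.07e-05). In the clrB deletion PDE_01873, whose nr description names an endoglycoceramidase, rose 1.48-fold (adjusted p = 0.0256), a call lost in 4 of the 9 fits that left out 1 library, with adjusted p from 0.0682 to 0.101. Both listed regulators, PacC for ambient pH (PDE_05163) and AreA for nitrogen source (PDE_03334), were not called in any comparison. Without clrB deletion replicate 2 both were called lower in that strain, with log2 changes of -0.30 and -0.37 (adjusted p = 0.0276 and 0.0171). They were then also lower than in the rcoA deletion (adjusted p = 0.0223 and 0.0260), as with equal medians (adjusted p = 0.0334 and 0.0409). PacC stood at 126 ± 8.78, 110 ± 14.3 and 124 ± 1.52 FPKM in the wild type, clrB deletion and rcoA deletion, and AreA at 54.4 ± 1.78, 45.5 ± 6.74 and 51.7 ± 3.49.

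Peptidases described in other words were called about as often as the members, but fewer of them fell in the rcoA deletion. Of 59 tested, 17 were higher and 6 lower there, and in the rcoA deletion 18 were higher and 23 lower, or 39.0% and 69.5% called against the backgrounds of 21.8% and 64.5%. Their median log2 change was 0.14 and -0.15. The saccharopepsin PDE_04768, the vacuolar protease A of Saccharomyces cerevisiae, read 2355.34, 2608.67 and 2868.91 FPKM in the wild type, 2531.99, 2283.87 and 2630.14 in the clrB deletion and 3230.18, 3207.41 and 3358.99 in the rcoA deletion. Although the rcoA deletion libraries lay above all others, the gene was not called against the wild type (log2 change 0.33, SE 0.15, adjusted p = 0.0767). That rise was called in 4 of the 20 alternatives, with adjusted p from 0.0196 to 0.0462. PDE_04768 was called lower in the clrB deletion than in the rcoA deletion (adjusted p = 0.0407), a call lost in 12 of the 20 alternatives. The Cys-Gly dipeptidase PDE_01500 was 1.49-fold higher in the clrB deletion (adjusted p = 0.0111) and 1.30-fold lower in the rcoA deletion (adjusted p = 0.0212), the fall being lost in 4 of the 9 fits that left out 1 library, with adjusted p from 0.0571 to 0.0806.

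The members held 6 pairs of genes with consecutive numbers. PDE_02342, with log2 changes of 2.19 and -2.04 in the clrB and rcoA deletions, had as its neighbour the Xaa-Pro aminopeptidase PDE_02343, with 0.30 and 0.34. The aspartyl aminopeptidase PDE_01942 was 1.94-fold lower in the rcoA deletion (log2 change -0.92, SE 0.13, adjusted p = 0.000258), while its neighbour PDE_01943, with the same description, stood at a log2 change of 0.02. Against the wild type, both genes of a pair were called in the same direction for 0 pairs in the rcoA deletion and 1 pair in the clrB deletion, PDE_02342 with PDE_02343, by calls that were each lost in 10 of the 20 alternatives. Between both deletions 1 pair was, PDE_09054 and PDE_09055, higher in the clrB deletion with log2 differences of 0.28 and 0.31, calls lost in 5 and 4 alternatives.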

How the data were processed

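Transcripts of 9 libraries, 3 per strain, were measured from mycelia. Per the labels' protocols, cDNA made on oligo(dT) beads was cut with NlaIII and MmeI into short tags. The authors deposited FPKM per gene and library, to 2 decimals, for 9907 genes. Aligner, counting, gene lengths and genome build were not given in the sources used here. A further 3 columns of per-library values match no sample used here and were left out. Depth per library is unknown, so no counting interval is given. Gene descriptions are the deposited ones. The reference table of 9964 genes shares 0 of the 9907 identifiers, so neither coordinates nor sequences are given.

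The 9097 genes whose mean reached 1 FPKM were fitted as log2(FPKM + 1) with an intensity trend, using limma 3.58.1 and R 4.3.3. A single fit over all libraries held 1 mean per strain, and the strains shared 1 estimate of the spread of each gene. Tests were two-sided, and calls required a Benjamini-Hochberg adjusted p under 0.05 over all tested genes. The script was tested on simulated data. Comparisons were each deletion against the wild type and the deletions against each other. Each member was put in 1 family by its first matching word, and 5 members matched 2 families. Reads of near-identical copies may have been shared between them, which makes such values uncertain.

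Genes were named by rule: the 8 largest called rises and falls per comparison with separate libraries and 10 FPKM or more as the mean of 1 strain, the 2 highest members of each family, the 10 highest in the wild type and the highest called gene of each further list. Those named beyond this rule complete a family, neighbour a named gene in locus number or were chosen after their values were seen. The members, lists, tests and 20 alternatives were chosen with earlier results of these data known. Alternatives were other pseudocounts, filters and scalings, only the strains compared, no trend, a replicate block, the excluded words applied to each text alone and leaving out each library.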

Additional observations from a re-analysis of the deposited data

How the results depend on the processing

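When 1 library was left out, members called against the wild type in the clrB deletion numbered 7 to 18 higher and 2 to 10 lower, and 9 to 13 and 5 to 9 under the other alternatives. For the rcoA deletion they numbered 7 to 10 higher and 20 to 23 lower, and 9 to 11 and 21 to 23. Between both deletions they numbered 19 to 28 higher and 3 to 6 lower, and 20 to 26 and 5 to 8. Same-numbered libraries of different strains deviated together only weakly (r from -0.161 to 0.341 over 9 pairs), so the numbers were not taken as pairs. With a replicate block the counts were 12 and 6 for the clrB deletion, 9 and 22 for the rcoA deletion and 26 and 6 between both. No called gene named by the rule changed direction under any of the 20 alternatives. Among those not called, quantile normalization turned the log2 change in the clrB deletion to 0.213 for PDE_09396, 0.111 for PDE_08101 and 0.148 for PDE_04768. It turned PDE_09054 to -0.0616 in the rcoA deletion, and PDE_09396 to 0.0428, PDE_08101 to 0.109 and PDE_06143 to -0.0193 between both. PDE_06143 and PDE_06308 turned to -0.0437 and -0.0400 between both with trimmed mean scaling, and to -0.0926 and -0.0881 with equal medians. Leaving out 1 library gave ranges that cross 0 in the clrB deletion for PDE_01353 (-0.555 to 0.110), PDE_09396 (-0.137 to 0.0339) and PDE_08101 (-0.123 to 0.0346). The same held in the rcoA deletion for PDE_09396 (-0.00968 to 0.111), PDE_09054 (-0.0376 to 0.0507) and PDE_09122 (-0.192 to 0.0283). Between both it held for PDE_07344 (-0.383 to 0.492) and PDE_06143 (-0.0136 to 0.150). The cause was not tested. Depth is unknown, which limits what can be said of genes under 1 FPKM.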
